A study of Mus musculus with 6 samples.

Results

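Cytoplasmic ribosomal protein genes encode the proteins of the ribosome, the particle that translates messenger RNA. The members were taken by symbol, as names of the RPL, RPS or RPLP form followed by a number (and an optional A, X or L suffix), plus RPSA. This rule matched 81 of the 13702 genes in the table. They comprise 45 genes of the large subunit, 30 of the small subunit and 6 near-copies whose symbol carries an L after the number. The data are RNA-sequencing counts from pancreatic islets of 12-week-old mice, with 3 libraries labelled KO, from β-PCKO mice, which lack pyruvate carboxylase in β-cells, and 3 labelled WT, from wild-type littermates. The sources used here do not name the driver of the β-cell deletion. The labels leave it unsaid whether the libraries of a group come from different animals, and the p-values therefore cover the spread among these libraries, which may be technical.

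A ribosome holds a single copy of nearly every ribosomal protein, so their genes are usually expressed at a coordinated level. Their messenger RNAs begin with a tract of pyrimidines, the 5′ terminal oligopyrimidine (TOP) tract, through which mTOR signalling controls their translation. Some of the free proteins also act outside the ribosome. RPL5 and RPL11 form a particle with 5S ribosomal RNA that binds MDM2, the ubiquitin ligase of p53, and p53 activation in β-cells is the subject named by the series title. In β-cells ribosomes carry the heavy load of proinsulin synthesis.

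All counts are of reads assigned to human gene names in libraries labelled mouse, and ribosomal protein genes have many processed pseudogene copies, so the division of reads between a gene and its copies is uncertain. Total counts ran from 35906 (WT replicate 1) to 377876 (WT replicate 2), with 224898 to 225561 in KO. One count is thus 27.9 CPM (counts scaled to a common library size) in WT replicate 1, the shallowest, and 2.65 CPM in WT replicate 2, the deepest. PC, the gene deleted in the knockout, had WT counts of 0, 4 and 0 and none (0) in KO, too few to check the labels. The KO libraries were close to one another. Over the 33 members with at least 20 KO counts, the chi-square per degree of freedom among them was 1.85, against 25.6 among the WT libraries over 68 members, where sampling noise alone gives a ratio near unity. The WT libraries differed in the tissue genes they held. Markers of squamous epithelium (42 of 42 listed, all 42 with a count there) made up 23.5% of WT replicate 2, and between 0.0769% and 0.149% of each other library. Markers of fibrous connective tissue (17 of 19 listed) made up 1.27% of WT replicate 3 and between 0.0844% and 0.39% of the rest. Of 11 β-cell markers 4 were listed, and they took 0.148% to 0.191% of counts in KO and 0.00582% to 0.0696% in WT. INS, which encodes insulin, was not listed under that name. In bulk RNA, fewer cells of a type and less RNA per cell cannot be told apart.

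The ribosomal protein genes together took less than 1% of counts in 5 libraries and several times that in WT replicate 2. Their share was 0.666% (95% interval 0.584 to 0.755), 3.10% (3.04 to 3.15) and 0.840% (0.792 to 0.890) in WT replicates 1, 2 and 3. In KO replicates 1, 2 and 3 it was 0.917%, 0.956% and 0.953%. The KO libraries therefore lay above WT replicates 1 and 3 and far below WT replicate 2. The mean was 0.942 ± 0.0217% in KO and 1.54 ± 1.36% in WT (SD, n = 3 each), so that the groups overlapped. Without WT replicate 2 the WT mean was 0.753%, below KO. The high share in WT replicate 2 coincided with its squamous epithelium markers, and their part in it was not tested.

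The balance of the subunits varied little. Large-subunit genes held 58.6% to 62.4% of ribosomal protein counts in the KO libraries and 58.7% to 61.9% in the WT libraries. Small-subunit genes held 36.9% to 40.4% and 37.2% to 38.8%. These shares moved by a few percentage points while the total moved several-fold.

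What differed between libraries was which members carried the counts. In the KO libraries 5 genes, RPS27, RPLP0, RPL15, RPL19 and RPS4X, held 74.8%, 77.7% and 76.3% of all ribosomal protein counts. They held 59.8%, 11.1% and 31.1% in WT replicates 1, 2 and 3. These 5 were set apart after their values were seen, as the members with at least 90 counts in each KO library, so the division describes the KO libraries and is not tested. RPS4X, just inside that limit, had 90, 103 and 109 KO counts. RPL31 and RPL30, just outside, had 31, 33 and 29 and 29, 38 and 25. Counts were not divided by gene length, so these shares do not rank the genes by abundance.

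**Figure D1:**
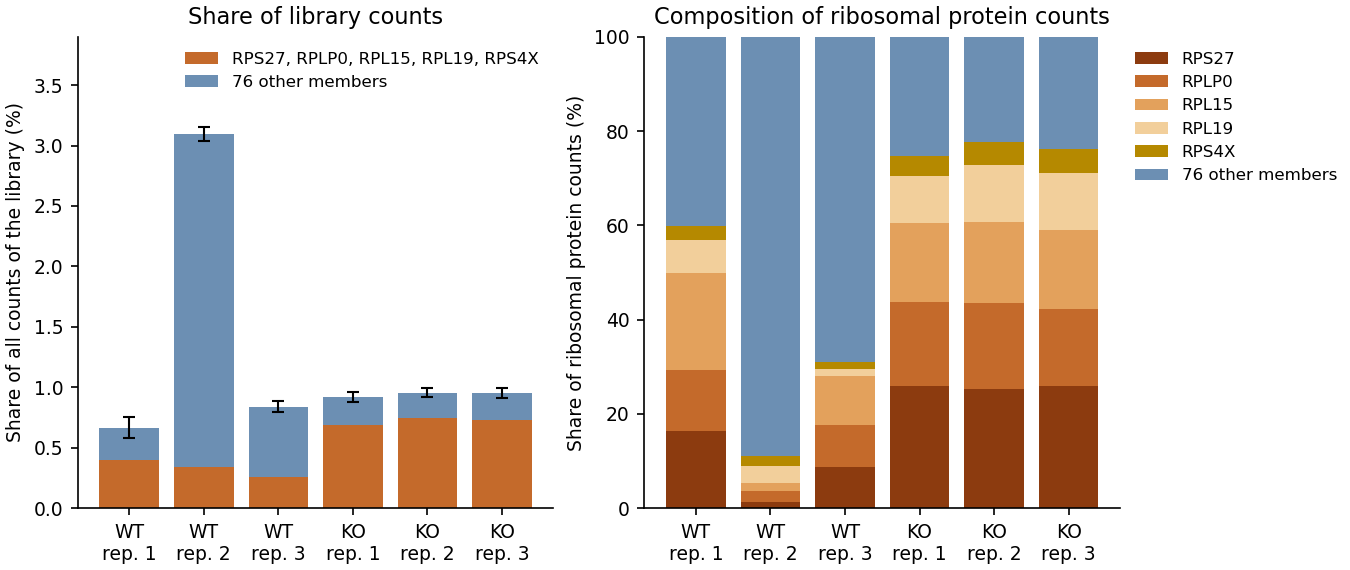
Left, share of all counts of each library (percent) taken by ribosomal protein genes, split into the 5 members with most KO counts and the other 76, with exact 95% intervals of the total. Right, percent of the ribosomal protein counts of each library held by each of the 5 and by the rest. The total stands at 3.10% in WT replicate 2 and at 0.666% to 0.956% elsewhere, and the 5 genes hold 74.8% to 77.7% of it in KO and 11.1% to 59.8% in WT.

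RPS27, a small-subunit protein with a zinc finger, had the most counts of any member in each KO library. The WT libraries 1, 2 and 3 held 39, 141 and 100 counts, and the KO libraries 534, 543 and 556. On TMM-scaled library sizes, which correct for a few dominant genes, this was 1004, 564 and 631 CPM in WT and 2246, 2264 and 2326 CPM in KO. Every KO library was above every WT library, and the highest of the WT values was in the shallowest library. KO exceeded WT by 1.65 ± 0.52 on the log2 scale (SE; edgeR adjusted p 0.0794), so that RPS27 did not pass the threshold of 0.05. It was called higher in DESeq2 (adjusted p 0.0211), in limma-voom (0.0442), with genes over 1% of counts left out of the library sizes (0.0473) and without WT replicate 1 (0.00225). Over all alternatives the adjusted p ran up to 0.954, with the KO columns summed to 1 library.

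RPLP0 and RPL15 stood in the same order, KO above WT, without passing the test. RPLP0 is the base of the ribosomal stalk, which recruits the translation GTPases. Its counts were 31, 279 and 101 in WT and 372, 393 and 351 in KO, or 850 ± 243 CPM in WT and 1557 ± 85.6 in KO (SD, n = 3; adjusted p 0.254 in edgeR). RPL15, a protein of the large-subunit core, had 49, 209 and 118 counts in WT and 344, 371 and 356 in KO, or 947 ± 275 and 1494 ± 50.3 CPM (adjusted p 0.366 in edgeR). For RPS27, RPLP0 and RPL15 the groups did not overlap. These are the 3 of 37 tested members (8.11%) whose KO libraries were all higher, against 22.6% of all tested genes, so a rise of this kind was no more frequent among the members than in the table.

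Of these 5, RPL19 and RPS4X were spread widest in CPM among the WT libraries. RPL19, which reaches across to the small subunit, had WT counts of 17, 406 and 16 and KO counts of 206, 261 and 263. That was 437, 1624 and 101 CPM in WT and 866 to 1100 CPM in KO, so WT replicate 2 lay above KO and the other WT libraries below (adjusted p 0.704 in edgeR). RPS4X, the X-linked small-subunit protein, had 7, 259 and 19 counts in WT and 90, 103 and 109 in KO. Its log2 fold change was −0.12 ± 0.75 (SE), and the sign turned positive under each other scaling of the libraries. Without WT replicate 2 the log2 fold changes of RPL19 and RPS4X were 2.13 and 1.62 (adjusted p 0.0996 and 0.0800 in edgeR).

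The other 76 members formed a low layer in every library except WT replicate 2. Their median count was 1 in WT replicate 1, 8.5 in WT replicate 3 and 3 to 5 in KO, but 109.5 in WT replicate 2. On TMM-scaled sizes the median of the 76 was 25.7, 438 and 53.7 CPM in WT replicates 1, 2 and 3, and 21.0, 12.5 and 20.9 CPM in the KO libraries. No KO library held more than 38 counts of any of the 76. WT replicate 2 had the highest CPM of the 6 libraries for 71 of all 81 members. The exceptions were RPS27, RPLP0, RPL15, RPS27L, RPL7L1, RPS29, RPL5, RPL9, RPL26L1 and RPS10. WT replicate 2 also had a count for 12193 genes of the table, against 3294 to 8298 in each other library. How many of all genes were highest there was not determined, so this is not shown to be particular to the members.

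**Figure D2:**
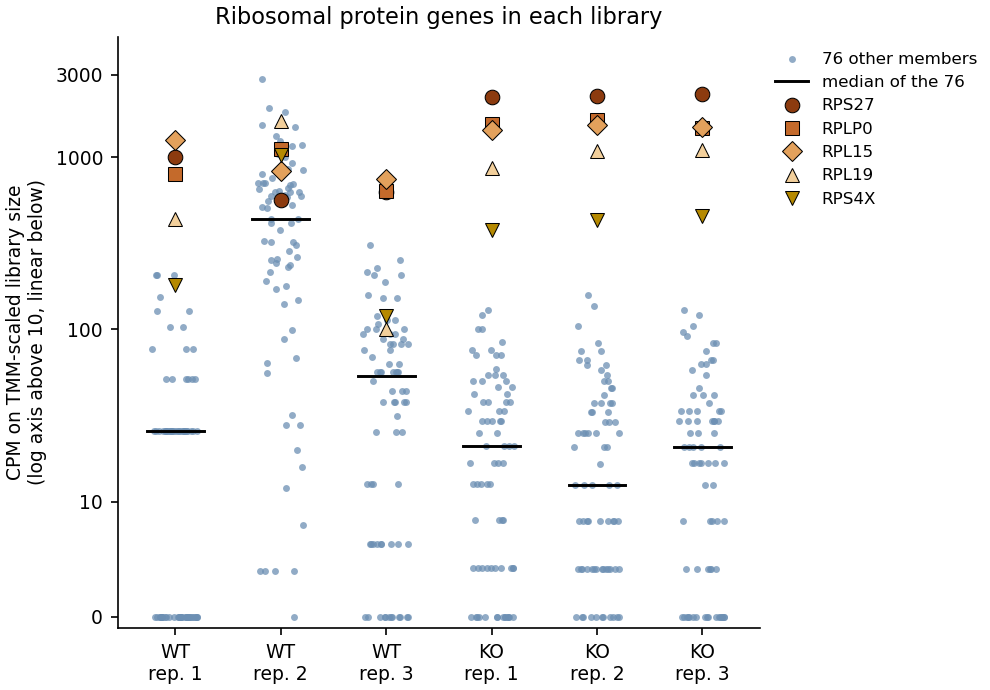
CPM on TMM-scaled library size of each of the 81 members in each library (log axis above 10, linear below). Small points are the 76 other members, with a line at their median, and large symbols the 5 members with most KO counts. The median of the 76 is 438 CPM in WT replicate 2 and 12.5 to 53.7 CPM in the other libraries.

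As these messenger RNAs are known for their TOP tract, the 30 bases around the annotated start of the mouse genes of the same symbol are shown for members of both kinds (15 bases on each side of the start, RefSeq on GRCm38.p6, 5′ to 3′ on the gene's strand). Capitals mark the letters CTTTCC, a short pyrimidine run of the TOP kind. Rps27 and Rpl15, with many KO counts, and Rpl28 and Rpl35, with few, hold these letters within this window. Rplp0 and Rps4x, with many, and Rps6 and Rpl11, with few, do not. Rpl19, with many and not shown, does not hold them at its listed starts either. Lacking these letters does not show that a TOP tract is absent. The Rps6 window, for example, has another run of pyrimidines at its annotated start. The windows are at chr3:90213634-90213663 (Rps27, minus strand), chr14:18270972-18271001 (Rpl15, minus), chr5:115559452-115559481 (Rplp0, plus), chrX:102189377-102189406 (Rps4x, minus), chr7:4792950-4792979 (Rpl28, plus), chr2:39005117-39005146 (Rpl35, minus), chr4:86857353-86857382 (Rps6, minus) and chr4:136053379-136053408 (Rpl11, minus).
Rps27: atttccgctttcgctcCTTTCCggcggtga
Rpl15: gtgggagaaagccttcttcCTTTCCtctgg
Rplp0: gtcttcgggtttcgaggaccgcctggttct
Rps4x: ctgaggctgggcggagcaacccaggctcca
Rpl28: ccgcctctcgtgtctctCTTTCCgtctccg
Rpl35: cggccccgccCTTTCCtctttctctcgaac
Rps6: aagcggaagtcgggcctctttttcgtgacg
Rpl11: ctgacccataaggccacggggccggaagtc

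Of the 81 members, 59 matched a gene in the promoter table, with 71 annotated starts in all. From 50 bases before to 50 bases after the start, 20 of the 71 (28.2%) held CTTTCC on the gene's strand, against 4.69% of all 32851 starts. On either strand it was 22 (31.0%) against 8.97%. The letters CGGAAG, the core bound by ETS-family factors, stood on either strand at 24 of 71 starts (33.8%) and at 9.12% of all. For the 5 genes with most KO counts, CTTTCC was on the gene's strand at 3 of 6 starts, and for the other members at 17 of 65. Neither motif contains the other. These are matches of letters, and some genes contribute more than one start.

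Tested gene by gene, few ribosomal protein genes passed the threshold, which does not show that the others did not differ. With edgeR's filter on low counts 37 of the 81 members could be tested, 23 of the large and 14 of the small subunit and none (0) of the near-copies. Of these, RPL23A and RPS3A passed, both lower in KO, none (0) was higher, and 35 did not pass. The 2 lower genes are 5.41% of the tested members. Of all 2560 tested genes 8.05% passed, 3.01% lower and 5.04% higher in KO, so the members' share is near the background. At an unadjusted p under 0.05 in edgeR, 24 members were lower and 1 higher, against 28.5% of all tested genes in either direction. The log2 fold change was below 0 for 33 of 37 members (89.2%) and for 53.2% of all tested genes, with a median of −2.74 for the members and −0.14 for all genes. Under 3 other scalings of the libraries, which moved the median of all genes up by 0.14 to 0.81, it was below 0 for 31 members, as RPS4X and RPL30 turned positive. Of all calls 62.6% were higher in KO, and 69.4% to 90.3% under those scalings. The filter decides which members enter these figures. RPL23A was below its level in every KO library and entered through the WT libraries alone, so a lower KO level was a condition of entry. Without it, all 81 could be fitted, 9 were called lower and none (0) higher (3.20% of all 13702 genes in either direction), and the medians were −1.98 and −1.06.

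The size of the difference depended on WT replicate 2. Without that library none (0) of 37 tested members passed in edgeR, as calls over all genes fell to 11 of 2780 (0.396%). At an unadjusted p under 0.05, 7 members were lower and 4 higher, against 27.3% of all genes, a share near the background. The median log2 fold change of the members was then −0.73 against −0.06 for all genes, and 22 members were below 0 and 15 above. The calls were also lost, to 0, when any 1 of the KO libraries was left out. At an unadjusted p under 0.05 in edgeR, 18 of 50, 16 of 48 and 22 of 50 tested members were lower without KO replicates 1, 2 and 3, and 0 higher. Over all genes it was 575 of 3345, 601 of 3345 and 600 of 3335 in either direction. Calls over all genes then fell to 0.0897%, 0.120% and 0.480%, while the members' median log2 fold change stayed between −2.44 and −2.40. Without WT replicate 1, the shallowest library, 30 members were lower and 3 higher (RPS27, RPLP0 and RPL15) of 49 tested, in a fit that called 46.6% of all genes. Without WT replicate 3 it was 5 lower and none (0) higher, with 7.09% of all genes called. DESeq2 called 17 lower and 1 higher and 17.5% of all genes, and gave no adjusted p for some members, RPL23A and RPS6 among them.

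**Figure D3:**
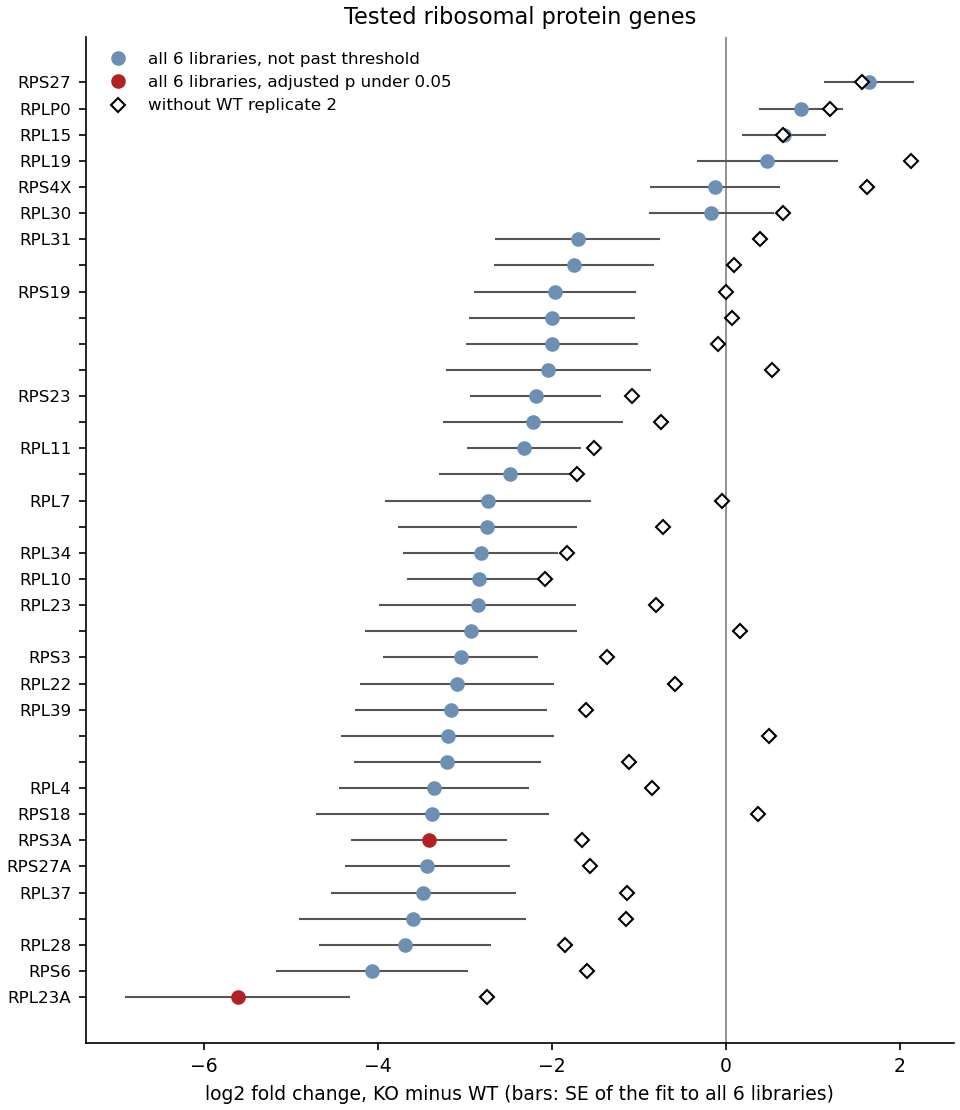
Log2 fold change of KO over WT for tested members, with names beside those the text describes (circles, with the SE as bars; red where the adjusted p in edgeR was under 0.05) and the same without WT replicate 2 (open diamonds). RPL23A and RPS3A pass with all 6 libraries, most members are below 0, and many move to or above 0 once WT replicate 2 is left out, RPS18 from −3.37 to 0.37.

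RPL23A, which lies at the exit of the nascent protein from the ribosome, had the largest fall of the tested members. Its counts were 4, 330 and 9 in WT and 3, 3 and 1 in KO. In CPM this was 103, 1320 and 56.8 in WT against 12.6, 12.5 and 4.18 in KO, so that the groups did not overlap, while a count in WT replicate 1 is worth more than a count elsewhere. KO differed from WT by −5.61 ± 1.29 on the log2 scale (SE; edgeR adjusted p 0.0365). Without WT replicate 2 it was −2.74 with an adjusted p of 0.0701, and the call was also lost without KO replicate 1, 2 or 3. RPL23A was called in 9 of the 14 alternatives that gave it a value, with adjusted p from 0.000277 to 0.951. As it passed the low-count filter through the WT libraries alone, the order of the groups was a condition of its entry in the main fit.

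RPS3A, a small-subunit protein, passed by a narrow margin. Its counts were 5, 376 and 40 in WT and 12, 11 and 20 in KO, or 129, 1504 and 253 CPM against 50.5, 45.9 and 83.7 CPM. The KO libraries were all below the WT libraries, again by most against WT replicate 2. On the log2 scale the difference was −3.41 ± 0.90 (SE; adjusted p 0.0496 in edgeR), and −1.65 without WT replicate 2 (adjusted p 0.126). The call was lost in 13 of 16 alternatives, with adjusted p from 0.00304 to 1.00.

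RPL28 and RPS6 came next and did not pass. RPL28, of the large subunit, had 2, 104 and 9 counts in WT and 2, 5 and 3 in KO, a log2 difference of −3.69 ± 0.99 (SE; adjusted p 0.0509 in edgeR). RPS6, the target of the S6 kinases downstream of mTOR, had 8, 715 and 34 counts in WT and 18, 6 and 23 in KO, so its WT replicate 2 count was the highest of any member in any library. Its log2 fold change was −4.07 (adjusted p 0.0535 in edgeR). In both genes the groups did not overlap in CPM. This held, with KO lower, for 12 of the 37 tested members (32.4%) and for 12.3% of all tested genes. The others were RPL23A, RPS3A, RPL11, RPS23, RPS27A, RPS3, RPL37, RPL10, RPL34 and RPL39. In every KO library RPL28, RPL23A, RPS27A, RPS3, RPL37, RPL10, RPL34 and RPL39 were below the level of the low-count filter. They entered the test through the WT libraries alone, so for them this order was a condition of entry. All tested genes passed the same filter, so neither share is free of it. In WT replicate 1 none of the 76 had more than 8 counts, so these orders rest there on few reads.

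RPL3, RPS18 and RPL4 showed the same dependence on WT replicate 2. RPL3, which lines the peptidyl transferase centre, had 1, 480 and 33 counts in WT and 6 in each KO library, and did not enter the filtered test. RPS18, of the small-subunit head, had 0, 458 and 12 in WT and 13, 14 and 18 in KO. Its log2 fold change was −3.37 with all libraries (adjusted p 0.140 in edgeR) and 0.37 without WT replicate 2. RPL4 had 5, 384 and 16 in WT and 12, 25 and 5 in KO (−3.36, adjusted p 0.0873 in edgeR). Of the 44 members left untested, 15 had at least 100 counts in WT replicate 2, while none (0) had more than 13 in any KO library.

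The other stalk proteins had few counts outside WT replicate 2. RPLP1 and RPLP2, acidic proteins that dimerise on RPLP0, had 1, 211 and 13 and 0, 294 and 0 counts in WT replicates 1 to 3. In the KO libraries they had 5, 6 and 4 and 1, 2 and 2 counts. Both were too low for the filtered test, and in the fit without a filter both were called lower. With a mean of at least 5 CPM RPLP2 was called and RPLP1 was not. The call of RPLP2 rests on WT replicate 2 alone, as every KO library was above WT replicates 1 and 3. RPLP0, described above, was thus higher in every KO library than in any WT library, while RPLP2 was at 0 in WT replicates 1 and 3. That difference between stalk members was not tested.

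Members that bind or are reported to act on MDM2 did not pass. Of 11 genes listed in this set (RPL5, RPL11, RPL23, RPL26, RPS7, RPS27A, RPS27L, RPS3, RPL37, RPS14 and RPS19), 6 were tested. None (0) passed in edgeR and 5 had an unadjusted p under 0.05. Of all 37 tested members 24 were lower and 1 higher at that level, and 28.5% of all tested genes reached it. DESeq2 called RPL11, RPL23, RPS27A, RPS3 and RPL37 lower, among 17 of the 37 members that it called lower. It called 17.5% of all tested genes. In edgeR the 6 had log2 fold changes from −3.48 to −1.97 and adjusted p from 0.0563 to 0.196. Of the 2 proteins of the 5S particle only RPL11 could be tested. RPL11 had 6, 176 and 49 in WT and 17, 18 and 22 in KO. In CPM this was 154, 704 and 309 against 71.5, 75.1 and 92.0, with no overlap, and a log2 difference of −2.32 ± 0.65 (SE; adjusted p 0.0591 in edgeR). RPL5 had 0, 5 and 4 in WT and 0 in each KO library, too few to compare. The 0 KO counts allow up to 13.3 CPM in each KO library. RPL26, which is known to promote translation of p53, had 4 WT and 2 KO counts. RPS27A, made as a fusion with ubiquitin, had 3, 178 and 15 counts in WT and 8, 5 and 7 in KO, a log2 difference of −3.43 ± 0.95 (SE; adjusted p 0.0563 in edgeR). RPL23, RPS3, RPL37 and RPS19 had adjusted p of 0.140, 0.0640, 0.0722 and 0.196. RPS7 had 1, 109 and 6 counts in WT and 5, 1 and 0 in KO, and RPS14 had 1, 43 and 1 and 1, 1 and 6. RPSA, also known as a laminin receptor, had 0, 147 and 7 in WT and 4, 1 and 4 in KO.

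The near-copies were scarce in each library. RPS27L, a copy of RPS27 and a p53 target, had 1, 17 and 33 counts in WT and 10, 9 and 7 in KO, or 101 ± 95.6 and 36.3 ± 6.48 CPM (SD, n = 3), and was not tested. Its highest count was in WT replicate 3, unlike most members, while RPS27 itself was lowest relative to library size in WT replicate 2. RPL22 had 1, 286 and 18 counts in WT and 7, 20 and 10 in KO (adjusted p 0.111 in edgeR), and its copy RPL22L1, which RPL22 is known to repress in mouse, had 1, 8 and 2 and 2, 3 and 6. RPL7L1 had 0, 16 and 11 and 3, 2 and 7, beside RPL7 with 0, 250 and 15 and 17, 9 and 15. RPL3L, the copy of RPL3 known from striated muscle, had 1 count, in WT replicate 2, and RPL26L1 and RPS17L had 2 and 1 over all libraries. RPL10L, RPL39L and RPL13A were not listed under those names.

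Some core members were near 0 even in the deepest library. WT replicate 2 had at most 10 counts for 12 of the 81 members, among them RPS10 with 0, RPL9 with 1, RPL36A with 2, RPL17 with 3, RPL26 with 4, RPL5 with 5 and RPS9 and RPS29 with 7. The median member had 128 counts in that library. In the KO libraries 7 members had no count at all, namely RPS21, RPL5, RPS9, RPL17, RPL36A, RPS17L and RPL3L. RPS21 had 0, 48 and 1 WT counts, nearly all of them in WT replicate 2. At these depths a count of 0 does not show that a gene was silent.

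Other genes of translation gave 3 falls and no rise. Of all 2560 tested genes 8.05% passed, 3.01% lower and 5.04% higher in KO, and no list was tested as a set. Among 13 tested genes of 19 listed that share the TOP tract or the ribosome but not the naming rule, 2 fell (HNRNPA1 and EEF2), none (0) rose and 11 did not pass, with a median log2 fold change of −1.87. HNRNPA1, an RNA-binding splicing regulator with many pseudogenes, had 32, 206 and 65 counts in WT and 29, 31 and 31 in KO, or 686 ± 239 and 127 ± 4.33 CPM (SD, n = 3). The log2 difference was −2.42 ± 0.51 (SE; adjusted p 0.0279 in edgeR). EEF2, the elongation factor that moves the ribosome along the messenger, had 16, 261 and 55 and 24, 39 and 28 (−2.25 ± 0.59 SE; adjusted p 0.0482). Without WT replicate 2 neither call held, at −2.18 (adjusted p 0.0539 in edgeR) and −1.49. Nor did either hold without any 1 of the KO libraries, and over 16 alternatives HNRNPA1 was called in 8 and EEF2 in 5. NPM1, a nucleolar chaperone, had an adjusted p of 0.0969. FAU, which encodes a ribosomal protein as a fusion with a ubiquitin-like protein, had 2, 66 and 0 counts in WT and 0, 5 and 0 in KO, and was not tested.

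Ribosome biogenesis genes (7 tested of 36 listed) included 1 that fell and 6 that did not pass, with a median log2 fold change of −1.89. GTPBP4, a nucleolar GTPase of large-subunit assembly, had 3, 28 and 11 counts in WT and 0, 0 and 2 in KO, a summed level 33.6-fold higher in WT (95% counting interval 8.75 to 287; adjusted p 0.0242 in edgeR). GTPBP4 passed the low-count filter through the WT libraries alone, so a lower KO level was a condition of its entry. It did not pass the threshold when WT replicate 2 (0.0596) or one of the KO libraries was left out. The fitted log2 difference, which at so few KO counts depends on the prior count, was −4.70 with all libraries, −4.31 without WT replicate 2 and −3.82, −3.81 and −6.88 without KO replicates 1, 2 and 3. NCL and DDX21, nucleolar RNA-binding proteins, had adjusted p of 0.0974 and 0.148. Initiation factors took 5.86% to 5.94% of counts in KO and 7.21%, 0.996% and 2.14% in WT replicates 1, 2 and 3. Most of these counts in each library were of EIF4G2, EIF1, EIF4A2 and EIF5 (5907, 3481, 1731 and 1540 in KO replicate 1), so the share mainly describes those genes. None (0) of the 16 initiation factors tested passed in edgeR. An unadjusted p under 0.05 was found for 4 of them, against 28.5% of all tested genes, and their median log2 fold change was 0.16. EIF2S2, the β subunit of eIF2, had 13, 52 and 48 counts in WT and 230, 203 and 205 in KO (1.68 ± 0.46 SE; adjusted p 0.0535; called in 6 of 16 alternatives), and EIF5B and EIF4E had adjusted p of 0.101 and 0.128. The 65 mitochondrial ribosomal protein genes, whose products serve mitochondrial translation, took 0.0356% to 0.0381% of counts in KO and 0.0279%, 0.152% and 0.108% in WT replicates 1 to 3. Of these 1 was tested and did not pass, and neither did the 2 tested of 5 genes of the p53 and MDM2 axis.

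Outside the members, the genes whose level followed the summed ribosomal protein level most closely were also high in WT replicate 2. Over the 6 libraries, Pearson's r between log2 CPM and the summed members was 0.99 for DSP, 0.99 for KIAA0100 and 0.98 for ALDH3A2, CTSB and PRDX1. DSP, which encodes the desmosome protein desmoplakin and is a squamous epithelium marker, had 5, 9108 and 18 counts in WT and 105, 81 and 89 in KO. CTSB, a lysosomal protease gene, had 4, 114 and 18 and 41, 34 and 36. The points share their libraries and the depth of WT replicate 2, and the correlation is a description.

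**Figure D4:**
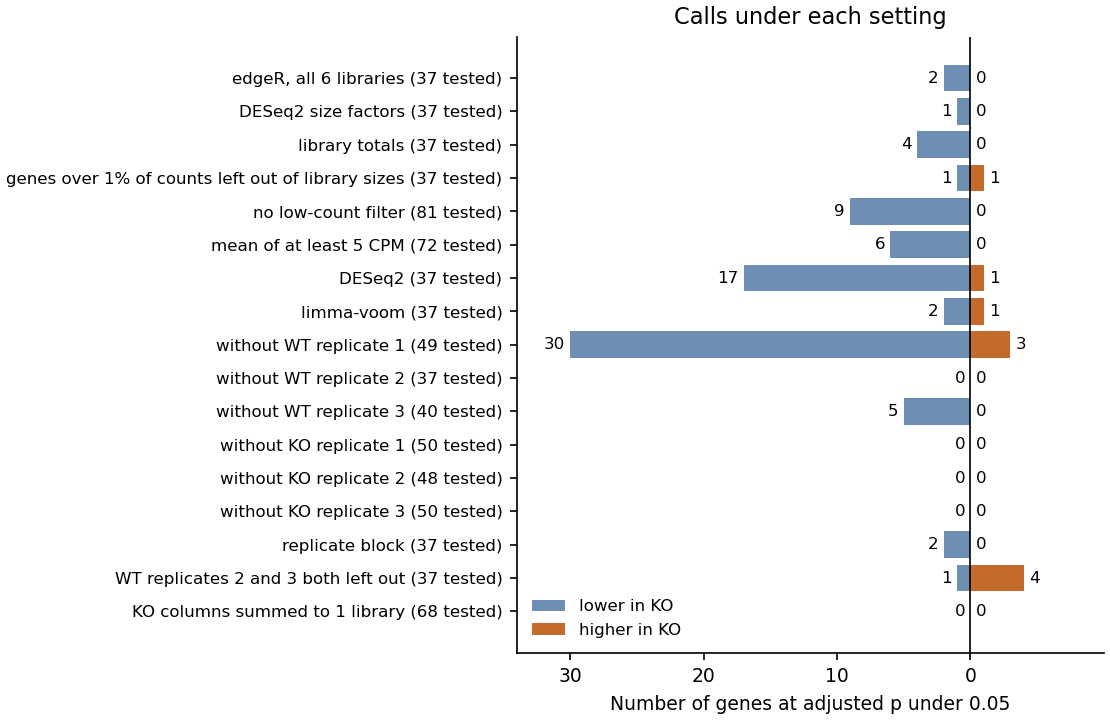
Number of ribosomal protein genes at an adjusted p under 0.05, lower in KO (to the left) and higher in KO (to the right), under each setting, with the number tested. The count is 2 lower with all 6 libraries in edgeR, 0 when WT replicate 2 or one of the KO libraries is missing, and 30 lower and 3 higher without WT replicate 1. Calls over all genes moved with them, from 206 to 11 without WT replicate 2, to 3, 4 and 16 without a KO library and to 1527 without WT replicate 1.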

How the data were processed

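The authors' deposited table gives whole-number counts per gene for 6 libraries, not normalized per the file headers. Named without role or order in the submitters' processing notes are mm10, HTSeq 0.9.1, HISAT2 2.0.4, edgeR 3.16.5 and cutadapt 1.9.3. Per the labels' protocols, ribosomal RNA was removed and libraries mark strand. Identifiers are human (0 match the mouse gene table), and the sources used here do not say how mouse reads were given them. A further 6 per-sample columns were not used.

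The test of each gene was edgeR's (version 4.0.16, R 4.3.3; TMM, filterByExpr, quasi-likelihood F test on genotype, two-sided, Benjamini-Hochberg over 2560 genes, threshold 0.05). On data simulated with the fitted dispersion (spread between libraries), it recovered 24% of 100 genes changed 4-fold and 85% of 100 changed 16-fold, with 5 false calls. With a dispersion of 0.05 it recovered 92% and 88%, with 8 false calls. Both simulations gave WT and KO the same dispersion, whereas the real WT libraries differed far more than the KO libraries. These rates may therefore not hold for the real data. Alternatives used DESeq2 1.42.0 and limma-voom (limma 3.58.1), other scalings and filters, the replicate block and left-out libraries. Shares carry exact Clopper-Pearson intervals at 95%. Intervals, and the floor of 3 counts for a count of 0, cover counting error only. Group means and SDs are of CPM on TMM-scaled sizes.

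Members and lists were chosen with earlier results of these data known. By rule, the named members were those past the threshold, the 10 with the highest mean share of counts, the 3 with the smallest p per subunit, MDM2-linked members, stalk proteins, near-copies with their parents, RPSA, RPS6, RPL22 and RPL23A, and up to 3 genes per translation list. The 5 members with most KO counts, the promoter windows shown, FAU and the remaining members named were chosen after their values were seen. Some genes that entered the fits and counts are not reported here by name or in the plot of fold changes.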

Additional observations from a re-analysis of the deposited data

How the results depend on the processing

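The count of ribosomal protein genes at an adjusted p under 0.05 depended on most choices, and with 3 libraries a group and 35906 counts in the shallowest, depth limits every call. In edgeR it was 2 lower and 0 higher, with 206 of all genes called and 3 calls in the translation lists. The lower count was 1 with DESeq2 size factors and 4 with library totals. With genes over 1% of counts left out of library sizes it was 1 lower and 1 higher (373 of all genes). Without a low-count filter it was 9 lower (439 of all genes, 0 in the lists), and with a mean of at least 5 CPM 6 lower (385 and 0). DESeq2 gave 17 lower and 1 higher (447 and 11) and limma-voom 2 lower and 1 higher (312). At an adjusted p under 0.1 it was 13 lower and 1 higher (422 and 6). With 1 library left out, the lower count ran from 0 to 30, the higher from 0 to 3, all genes from 3 to 1527, the lists from 0 to 23 and the members' median log2 fold change from −3.11 to −0.73. The cause was not tested.

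Under 2 alternatives chosen after seeing the data, leaving out WT replicates 2 and 3 gave 1 lower and 4 higher (766 and 13) and a median of 1.04, with the lone WT library assumed to vary like the KO libraries. Summing the KO columns to 1 library left KO with no spread of its own, and the calls were lost. The members' median log2 fold change was then −1.64, against −0.16 for all genes.

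Deviations of same-numbered WT and KO libraries were hardly correlated (−0.000596, −0.0168 and 0.0195). As the KO libraries differed little beyond counting noise, this cannot show whether the replicate numbers pair the samples. With the replicate block, 2 members were lower (RPL23A and RPS6) and 137 genes were called.

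Other scalings moved the median of all genes up by 0.25, 0.14 and 0.81 on the log2 scale (DESeq2 size factors, library totals, genes over 1% left out), and the share of calls that were higher in KO from 62.6% to 77.8%, 69.4% and 90.3%. The KO share of ribosomal protein counts was 1.06% with genes over 1% left out of the denominator, 0.888% on TMM-scaled size and 0.700% without RPS27.

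The sign of RPS4X turned positive at 0.20, 0.35 and 0.82 under those scalings, 0.82 and 0.88 under the other filters, 0.32 in limma-voom, 0.56 with the replicate block, 1.24 with KO summed and 0.39, 0.31 and 0.25 without KO replicate 1, 2 and 3. With 1 library left out, RPS4X ran from −0.50 to 1.62, RPS18 from −3.82 to 0.37 and RPS19 from −2.30 to 0.0024, the upper ends without WT replicate 2. With WT replicates 2 and 3 both left out, RPS4X was 1.30, RPL22 1.06, RPL23 6.31, RPS18 6.59, RPS19 1.43 and NCL 0.39. In WT replicate 1, the only WT library then left, RPL23 and RPS18 had 0 counts and RPL22 and RPS19 had 1 each. The KO counts of RPL23 were 13, 8 and 16. The values of RPL23 and RPS18 thus depend on the prior count and do not measure the size of a rise.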
